A study of Mus musculus with 18 samples.

Results

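Long-term hematopoietic stem cells of young mice (LT-HSCs) were compared with short-term HSCs of the same age (ST-HSCs) by RNA sequencing of 6 libraries, 3 of each fraction, out of 18 in all. Both fractions came from the bone marrow of Hoxb5-tri-mCherry mice on a C57BL/6J background, 2 to 3 months old and otherwise untreated as far as the labels say. Within immunophenotypically defined HSCs, cells with mCherry from the Hoxb5 locus were taken as LT-HSCs and those without it as ST-HSCs, after enrichment of c-Kit+ cells and a double sort. The members were chosen by these labels and not by any measured value, though earlier results of these data were known. The reporter allele is carried by every group, and how many mice or cells gave each library is not stated in the sources used here. The other 12 libraries hold unsplit bulk-HSCs of the same age and the same 3 fractions of mice aged 23 to 25 months, and were used to choose the genes tested, to estimate the spread and for comparison.

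HSCs renew themselves and give rise to all blood cells, and only a part of the cells that pass the surface-marker gate keep this ability through long or repeated transplantation. LT-HSCs divide rarely, whereas ST-HSCs make blood for a limited time and stand closer to the multipotent progenitors, which divide more often and carry FLT3 and CD34 on their surface. Known markers of the most durable HSCs include CD150, the product of Slamf1, and von Willebrand factor, a platelet adhesion protein whose gene is also read in HSCs that lean towards platelets.

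The LT-HSC libraries held 18402228, 19778541 and 16495048 counts and the ST-HSC libraries 21145584, 21601506 and 18527435, so that 3 counts stood for between 0.136 and 0.176 CPM, that is, counts divided by library size on a common scale. Without molecular identifiers on the reads, such a floor speaks for counting error alone. Libraries stood apart in ways the labels do not explain. Of 9653 genes whose median was 200 counts or more, LT-HSC replicate 3 had 163 at 0 and ST-HSC replicate 3 had 160, against 1 to 46 in the other 4 libraries, so an exact 0 may be a failed estimate. In ST-HSC replicate 3, 7 genes each stood far above their level in the other 5 libraries and together took 5.49% of the counts, among them Ociad1 at 26946 CPM. The mean distance between an LT-HSC and an ST-HSC library, taken as 1 minus Spearman's rho, was 0.0835, little more than the 0.0828 among LT-HSC libraries and the 0.0716 among ST-HSC libraries.

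Hoxb5, which encodes the homeobox factor the sort relied on, had 40.3, 8.77 and 8.20 CPM in LT-HSCs and 3.83, 2.40 and 0 CPM in ST-HSCs. All LT-HSC libraries lay above all ST-HSC libraries, but LT-HSC replicate 1 alone was above 9 CPM. The log2 fold change was 3.19 (standard error, SE, 1.13) and did not pass the adjustment over all genes (edgeR's quasi-likelihood test, adjusted p = 0.295). An exact two-sided permutation test gave p = 0.1, the smallest that 3 libraries against 3 allow. Since the cells were sorted on this locus, the difference checks the labels and is no finding. Of the genes the gate selects for, Kit, the stem cell factor receptor, had between 1138 and 1496 CPM in the 6 libraries and Ly6a, which encodes Sca-1, between 64.2 and 152 CPM. The mature T cell genes Cd3e and Cd8a, the red cell gene Hba-a1 and the lymphoid receptor gene Il7r had 0 counts in all 6 libraries. Cd4, another T cell gene, had 0 in LT-HSCs and 2.31, 3.49 and 0 CPM in ST-HSCs. The myeloid gene Itgam had 1.85, 2.74 and 0 CPM in LT-HSCs and 6.71, 4.76 and 9.59 CPM in ST-HSCs. Its libraries did not overlap, but it was not called (adjusted p = 0.816 by edgeR). Fcgr3 had 0 in LT-HSCs and 0, 0.770 and 4.14 CPM in ST-HSCs. Of the globin genes, Hba-a2 and Hbb-bs had 0.637 and 0.441 CPM in LT-HSC replicate 2 and 0 in the other 5 libraries. Summed over 36 counted markers of mature cells, the level was 61.1 to 124 CPM in LT-HSCs and 82.9 to 108 CPM in ST-HSCs, and 4 to 11 of the markers were detected in a library.

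Of 12808 tested genes, 40 were higher in LT-HSCs (0.312% of those tested) and 15 were lower (0.117%) at an adjusted p under 0.05. The libraries of the fractions did not overlap in 54 of these 55 genes. The exception was Pdcd2, a gene named for programmed cell death, with 23.9 and 21.2 CPM in ST-HSC replicates 1 and 2 and 10324 in replicate 3, so its call rests on a single library. Across all tested genes, LT-HSC libraries lay wholly above ST-HSC libraries in 774 (6.04%) and wholly below in 778 (6.07%), near balance. All p-values measure the spread between libraries, which may be technical, since separate animals are not stated. The main fit shared its spread with the other groups, and the number of calls changed with the libraries fitted and the method. A fit of the 9 young libraries alone called 4 genes and a fit of these 6 libraries alone called 5, while DESeq2 called 365. Each of the fits on fewer libraries kept 2 of the 55 genes. The aged libraries had 2 to 6 of the 9653 well expressed genes at 0, fewer than most young libraries. Whether the shared spread is too small for the young libraries was not tested. The balance between rises and falls rested on single libraries too, with 53 higher and 74 lower without LT-HSC replicate 2, 52 and 30 without ST-HSC replicate 2, 37 and 8 without LT-HSC replicate 3, and 27 and 8 without ST-HSC replicate 3. Without both libraries that had many genes at 0, 24 were higher and 6 lower. Every one of the 55 genes kept its direction in each of the alternative settings in which it was tested, 16 or 18 by gene. Vwf alone passed in all of them. A bulk measurement of this kind cannot tell fewer cells that express a gene from less RNA per cell.

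**Figure D1:**
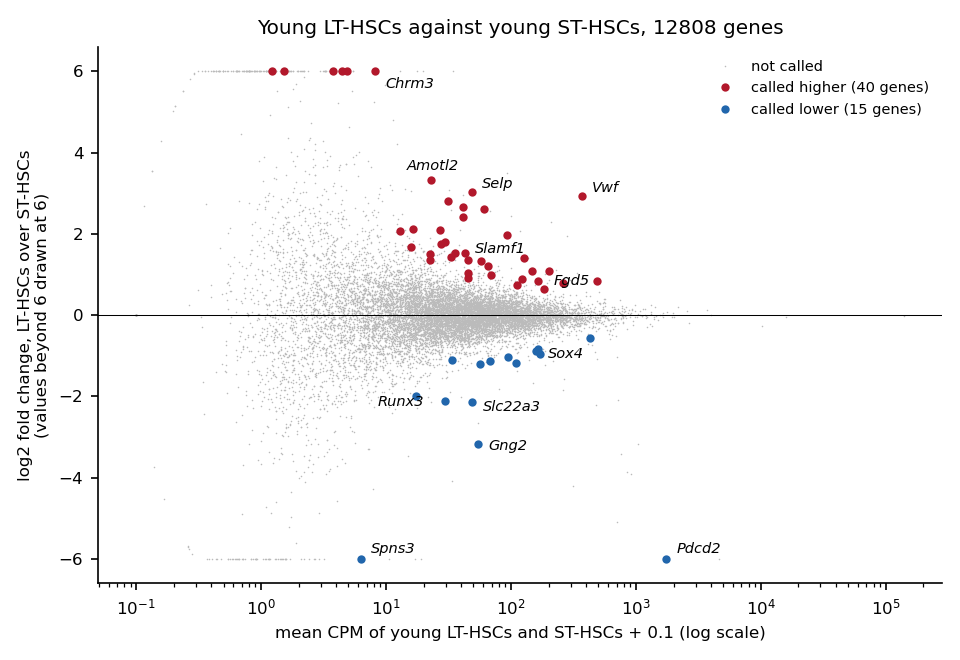
Log2 fold change of young LT-HSCs over young ST-HSCs against the mean CPM of both fractions plus 0.1 (log scale), for the 12808 tested genes, with changes beyond 6 drawn at 6. Grey points did not pass the adjusted p of 0.05, red points are the 40 genes higher in LT-HSCs and blue points the 15 lower, and Vwf stands out by combining a high level with a large difference.

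Vwf, on chromosome 6 of mm10 from 125546774 to 125686679, was the clearest difference. It had 560, 643 and 754 CPM in LT-HSCs and 84.2, 69.9 and 102 CPM in ST-HSCs. The lowest LT-HSC library thus had several times the level of the highest ST-HSC library. Bulk-HSCs lay between, at 211, 335 and 384 CPM. The mean was 652 ± 97.4 CPM (SD, n = 3) against 85.3 ± 15.9 (SD, n = 3), a log2 difference of 2.93 (SE 0.21, adjusted p = 9.6e-07 by edgeR). The value without each library in turn stayed between 2.81 and 3.09.

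Selp encodes P-selectin, a platelet and endothelial receptor for leukocytes. It had 41.7, 89.9 and 127 CPM in LT-HSCs and 9.59, 12.6 and 9.65 CPM in ST-HSCs, a log2 difference of 3.02 (SE 0.48). LT-HSC replicate 1 was well below the other LT-HSC libraries, yet did not reach down to the ST-HSC range. Neo1, a receptor for netrins and repulsive guidance molecules, had 55.3, 77.5 and 30.8 CPM against 6.28, 4.30 and 12.8. The gap was narrowest between LT-HSC replicate 3 and ST-HSC replicate 3, both of which had many genes at 0. Its log2 fold change was 2.81 (SE 0.41). Amotl2 encodes a scaffold protein of cell junctions that binds the Hippo pathway effector YAP. It had 48.8, 36.8 and 39.8 CPM in LT-HSCs and 3.12, 6.62 and 2.72 CPM in ST-HSCs, with a log2 difference of 3.32 (SE 0.39, adjusted p = 8.0e-04 by edgeR). Tns2, a tensin that links integrins to actin, had 161, 144 and 137 CPM against 40.9, 48.5 and 23.6.

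The muscarinic acetylcholine receptor gene Chrm3 was nearly confined to LT-HSCs in young mice, at 8.88, 22.8 and 16.1 CPM against 0, 0.634 and 0 in ST-HSCs. Its log2 difference of 6.12 (SE 1.19, adjusted p = 0.029 by edgeR) rests on ST-HSC counts near the floor. Plk2, a polo-like kinase, had 92.4, 60.1 and 62.0 CPM in LT-HSCs and 15.1, 10.2 and 8.80 in ST-HSCs. Chd7, a chromatin remodeler, had 55.8, 79.6 and 71.2 CPM against 20.4, 12 and 6.36. Neither gene overlapped between the fractions. Clca3a1, of the calcium-activated chloride channel regulator family, had 105, 60.5 and 148 CPM against 19.9, 20.7 and 10.1. The 12 largest rises at 10 CPM or more also included Tmem158, a transmembrane protein gene, with a log2 difference of 2.13, and Kif21a, a kinesin motor gene, with 2.08.

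**Figure D2:**
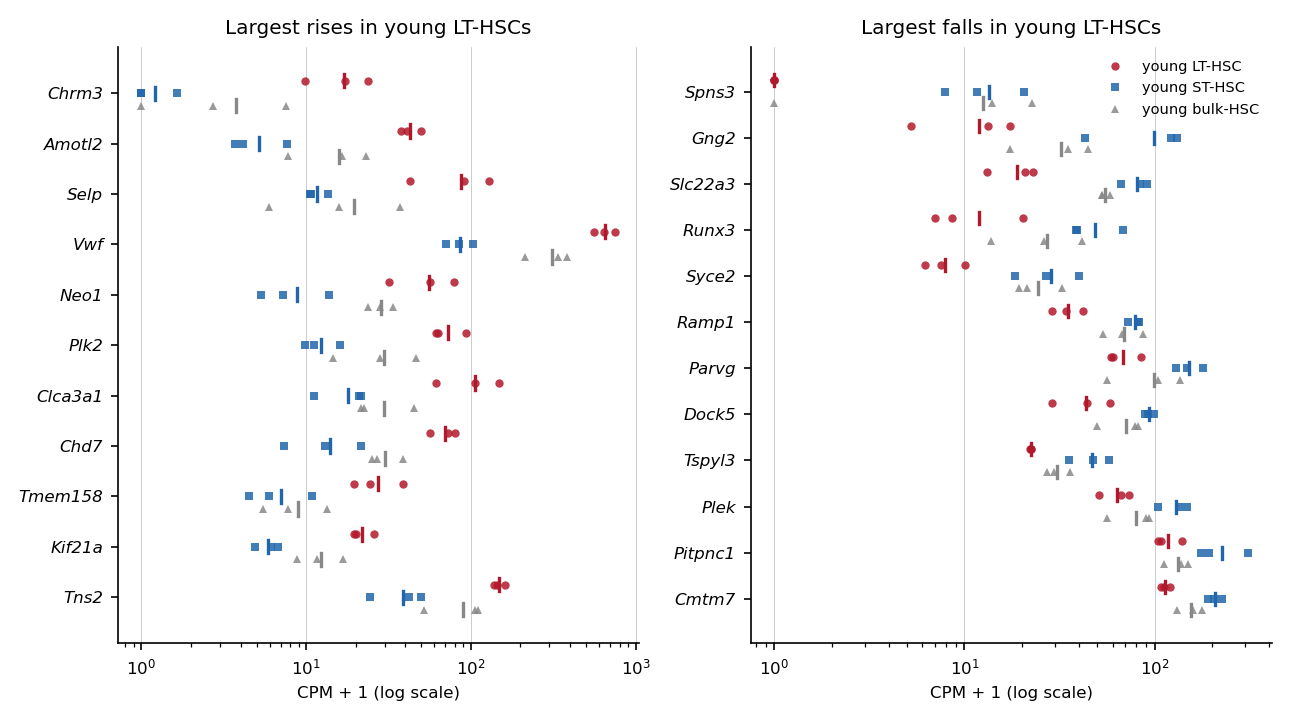
CPM plus 1 (log scale) in each young library for 11 of the 12 genes with the largest rise (left) and the 12 with the largest fall (right) in LT-HSCs. Each symbol is a library and each bar the mean of 3, with red circles for LT-HSCs, blue squares for ST-HSCs and grey triangles for bulk-HSCs, and red and blue symbols do not overlap in any of the 23 genes.

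Among the other genes called higher, Igf2bp2, an RNA-binding protein gene, had 59.6, 43.9 and 54.1 CPM in LT-HSCs and 21.9, 16.2 and 16.1 in ST-HSCs. With an adjusted p of 0.048 by edgeR it was the last gene inside the threshold, and Pik3r1, a regulatory subunit of PI3-kinase, was the first outside it with 0.0502. Setbp1, which encodes a protein that binds the oncoprotein SET, had 35.3, 47.8 and 44.9 CPM against 14.6, 14 and 8.97. Tgm2, a transglutaminase, was among the more abundant of these genes, at 626, 499 and 765 CPM against 356, 378 and 327. Its log2 difference was 0.83 (SE 0.16). Myof, which encodes the membrane repair protein myoferlin, had 320, 302 and 363 CPM against 188, 241 and 142, and Bace1, the beta-secretase gene, had 108, 85.8 and 80.8 CPM against 58.0, 45.8 and 35.6. The ubiquitin ligase gene Trim47, the endocytic gene Ehd3 and Prosc, which encodes a vitamin B6 binding protein, had log2 differences of 0.85, 1.04 and 0.93. Exph5, Tmem56 and Tmem176a, at 1.37, 1.67 and 0.74, were also called. None of these overlapped between the fractions.

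Fewer genes were lower in LT-HSCs, and they included a transporter, a G-protein subunit and 2 transcription factors. Slc22a3 encodes an organic cation transporter that takes up monoamines. It had 19.8, 22.0 and 12.2 CPM in LT-HSCs and 82.5, 65.5 and 90.3 CPM in ST-HSCs, with bulk-HSCs between them at 51.6, 57.0 and 51.8. Its mean was 18 ± 5.15 CPM (SD, n = 3) against 79.4 ± 12.7 (SD, n = 3), a log2 difference of -2.14 (SE 0.28, adjusted p = 0.0010 by edgeR). Gng2, the gamma-2 subunit of heterotrimeric G proteins, had 12.3, 4.21 and 16.3 CPM against 131, 121 and 41.8. ST-HSC replicate 3 stood well below the other two but still above all LT-HSC libraries. The log2 difference for Gng2 was -3.16 (SE 0.50).

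Runx3, a Runt-domain transcription factor of T cell and NK cell development, had 7.57, 5.97 and 19.4 CPM in LT-HSCs and 67.4, 38.2 and 37.5 CPM in ST-HSCs. Sox4, a transcription factor needed for B cell formation, had 114, 105 and 133 CPM against 220, 212 and 198. The difference in Sox4 was modest in size, -0.84 on the log2 scale, but the libraries were tight around their means (SE 0.13, adjusted p = 0.0038 by edgeR). Ramp1, a co-receptor for the neuropeptide CGRP, had 41.2, 28.0 and 33.2 CPM against 71.0, 82.0 and 80.5. Cmtm7, a tetraspan membrane protein of B cells, had 111, 107 and 120 CPM against 226, 189 and 204. Parvg and Plek, which encode the focal adhesion protein gamma-parvin and the platelet and leukocyte protein pleckstrin, had log2 differences of -1.17 and -1.03. Syce2, Dock5, Tspyl3, Pitpnc1 and Mlec, between -1.99 and -0.56, completed the called falls with Pdcd2 and Spns3.

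In 6 called genes one fraction had no count in any library, and only a lower bound against 3 counts per library can be given. Hoxb6 had 13.9, 9.70 and 4.86 CPM in LT-HSCs and 0 in ST-HSCs, at least 63.6-fold higher. The netrin gene Ntn4 was at least 58.0-fold higher, at 15.5, 6.71 and 3.81 CPM. The adaptor gene Apba1 was at least 48.7-fold higher, at 9.15, 9.01 and 3.63 CPM. Epor, the erythropoietin receptor, and Muc1, a membrane mucin, were at least 18.9-fold and 15.2-fold higher. Their LT-HSC levels were low, between 0.996 and 4.65 CPM for Epor and between 0.926 and 3.87 for Muc1. In the other direction, Spns3, of the spinster transporter family, had 0 in LT-HSCs and 6.94, 10.7 and 19.5 CPM in ST-HSCs, at least 76.5-fold lower. These bounds take the zeros as true low counts.

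To show what lies upstream of genes that moved, the 250 bases before the RefSeq transcription start (GRCm38.p6) are given for 2 called genes that rose and 1 that fell, each read 5′ to 3′ on the strand of the gene. Amotl2 lies on the plus strand at chr9:102717554-102717803, Slamf1 on the plus strand at chr1:171766882-171767131 and Slc22a3 on the minus strand at chr17:12507705-12507954. Capitals mark TGTGGT, the core bound by RUNX factors, and CCGGAA, the core bound by ETS factors, on either strand. AGATAA, which factors such as GATA proteins bind, was searched as well and has no match in these 3.
Amotl2: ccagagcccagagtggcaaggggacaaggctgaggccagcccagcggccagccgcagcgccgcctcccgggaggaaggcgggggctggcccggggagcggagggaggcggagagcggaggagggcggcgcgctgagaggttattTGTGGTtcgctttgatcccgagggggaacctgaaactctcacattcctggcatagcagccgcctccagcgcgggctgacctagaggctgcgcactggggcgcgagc
Slamf1: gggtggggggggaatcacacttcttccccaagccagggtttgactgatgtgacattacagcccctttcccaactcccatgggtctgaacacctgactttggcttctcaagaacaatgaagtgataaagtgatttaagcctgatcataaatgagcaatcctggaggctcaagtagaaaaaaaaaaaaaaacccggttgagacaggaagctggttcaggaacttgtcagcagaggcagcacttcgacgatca
Slc22a3: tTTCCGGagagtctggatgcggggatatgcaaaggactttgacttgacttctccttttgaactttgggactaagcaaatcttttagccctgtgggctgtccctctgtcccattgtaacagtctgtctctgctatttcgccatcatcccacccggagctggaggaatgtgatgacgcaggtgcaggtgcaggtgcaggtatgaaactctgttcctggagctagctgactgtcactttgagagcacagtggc

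The Amotl2 window holds 1 RUNX core in the forward direction and is rich in G and C, at 70.4% against a median of 52.4% over the 32851 mouse windows. The Slamf1 window holds none of the searched cores. The Slc22a3 window holds 1 ETS core, on the opposite strand. RUNX cores were present in 6 of the 27 windows of genes called higher and in 5 of the 15 windows of genes called lower, against 14% of all windows. ETS cores were in 1 window of each set, against 12% of all windows. GATA cores were in 2 and 0 windows, against 9.99%. Windows were found for 26 of the 40 and 12 of the 15 genes. These matches describe the letters in a window and are no evidence of binding.

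The Hoxb cluster on chromosome 11 holds Hoxb9, Hoxb8, Hoxb6, Hoxb5, Hoxb4, Hoxb3 and Hoxb2 between 96271457 and 96354012, and these transcription factor genes act in patterning of the embryo and in HSCs. Among the 16 tested Hox genes of the list 11 had a higher fitted level in LT-HSCs, against 49.4% of all tested genes. Hoxb6 was the 1 called gene, against 0.312% called higher among all tested genes. The median log2 fold change was 0.53, against -0.0040 over all tested genes. Of the 16, 6 did not overlap between the fractions with LT-HSCs higher, against 6.04% of all tested genes, and all 6 are Hoxb genes, Hoxb5 itself among them. Outside the list, Hoxc6 had 7.24, 0.686 and 11.1 CPM in LT-HSCs and 0 in ST-HSCs (adjusted p = 0.169 by edgeR). Hoxb8 had 10.1, 10.9 and 9.55 CPM in LT-HSCs and 0, 0.634 and 0 in ST-HSCs, with similar values in the 3 LT-HSC libraries (adjusted p = 0.222 by edgeR). Hoxb9 had 1.52, 7.98 and 2.69 CPM in LT-HSCs and 0 in ST-HSCs and in bulk-HSCs. Hoxb4, long studied for expanding HSCs, had 54.1, 38.3 and 44.2 CPM against 22.0, 24.4 and 33.4, with a log2 difference of 0.78 (SE 0.26, adjusted p = 0.238). Hoxb2 had 25, 21.7 and 15.9 CPM against 3.68, 2.99 and 5.39. Hoxb7, of the same cluster but below the level for testing, had 0.926, 0 and 1.17 CPM in LT-HSCs and 0 in ST-HSCs. Hoxb3 overlapped, because ST-HSC replicate 2 had 23.4 CPM. The antisense gene Hoxb5os lies across the whole of Hoxb5 and Hoxb6. Whether the counting used the strand is not stated, so reads of these genes may not have been told apart. Genes of the Hoxa cluster such as Hoxa9, with a log2 difference of -0.19, overlapped between the fractions.

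**Figure D3:**
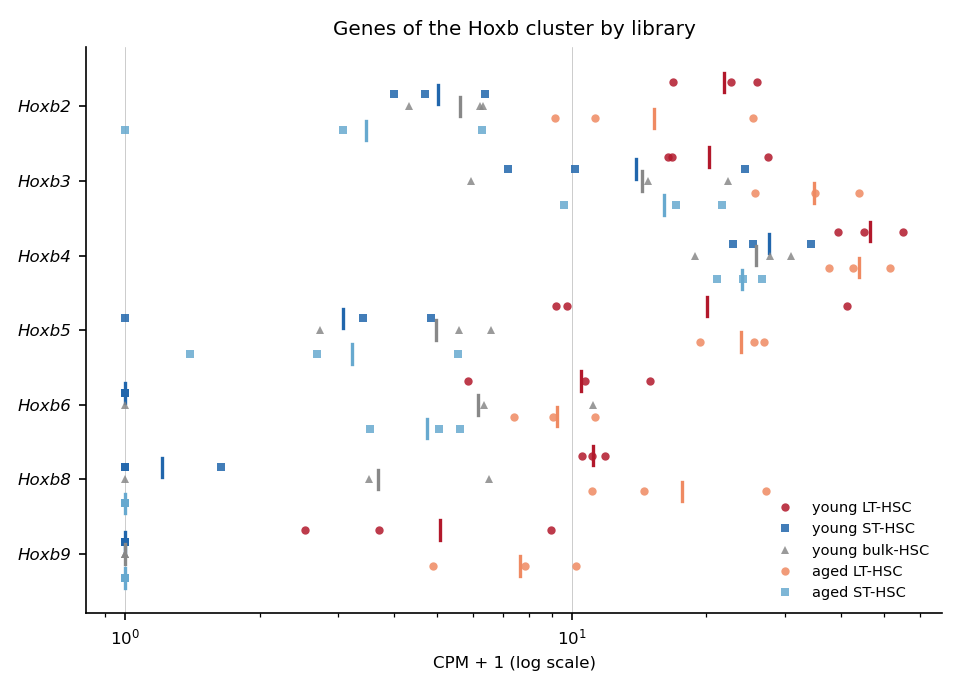
CPM plus 1 (log scale) of 7 genes of the Hoxb cluster in each library of young LT-HSCs, ST-HSCs and bulk-HSCs and of aged LT-HSCs and ST-HSCs, with a bar at each mean of 3. Hoxb8 and Hoxb9 are at or near 0 in ST-HSCs of both ages and above 1 CPM in every LT-HSC library, whereas Hoxb3 overlaps in young mice.

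Of the tested sort markers other than Hoxb5, Slamf1 alone had a higher fitted level in LT-HSCs. The rest were lower, among them Kit, which the gate selects for. Slamf1 (CD150) had 52.2, 70.5 and 67.5 CPM in LT-HSCs and 13.9, 27.3 and 24.5 CPM in ST-HSCs, a log2 difference of 1.53 (SE 0.23, adjusted p = 0.0033 by edgeR). Flt3, the receptor that marks multipotent progenitors, had 22.3, 9.16 and 15.9 CPM against 89.3, 49.98 and 52.8. The groups did not overlap, but the difference of -2.02 (SE 0.49) had an adjusted p of 0.085 from edgeR and was not called. Cd34 had 127, 105 and 161 CPM against 240, 199 and 285, a log2 difference of -0.88 with an adjusted p of 0.063, and Kit had -0.26 with 0.165. Cd48, below the level for testing, had 0 counts in LT-HSCs and 2.27, 0.952 and 0.397 CPM in ST-HSCs. Ly6a overlapped, with a log2 difference of -0.04 (SE 0.35) that turned to 0.01 when counts were scaled by library size alone. Over the 10 tested sort markers 1 was called higher and 8 had a lower fitted level, against 0.312% and 50.4% of all tested genes. The median was -0.57, with 2 genes at 0 in LT-HSCs.

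Genes known from HSCs mostly had higher levels in LT-HSCs, though few passed singly. Of 48 tested genes of HSC identity, 40 had a higher fitted level in LT-HSCs against 49.4% of all tested genes. The called members were 6 higher and none lower, against 0.312% and 0.117%, and the median log2 fold change was 0.43. This list, like the others, was written with earlier results of these data known, so the share is no test. Its summed level was 11443, 10700 and 10354.5 CPM in LT-HSCs and 9475, 9182 and 11834 CPM in ST-HSCs. ST-HSC replicate 3 thus lay above all LT-HSC libraries. The called members included Fgd5, Sult1a1, Clca3a1, Neo1 and Klhl4. Fgd5, an exchange factor whose expression is used to mark HSCs, had 216, 216 and 235 CPM in LT-HSCs and 147, 135 and 147 in ST-HSCs, a small but tight difference of 0.64 (SE 0.13, adjusted p = 0.037 by edgeR). Klhl4, a BTB-Kelch protein gene, had 66.9, 56.8 and 72.8 CPM against 27.4, 30.7 and 18.2. Of the uncalled members, Mecom, which encodes the HSC transcription factor EVI1, had 341, 343 and 356 CPM against 250, 257 and 234 (log2 fold change 0.49, adjusted p = 0.066). Procr, the endothelial protein C receptor, had 129, 128 and 138 CPM against 91.8, 97.9 and 78.1 (0.56, adjusted p = 0.114). Hlf, a transcription factor often used as an HSC marker, had a log2 difference of -0.30 and overlapped. Lmna was the 1 member whose LT-HSC libraries lay wholly below.

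The list with the highest median held genes known to rise in HSCs with age. Of its 49 tested members, 11 were called higher in young LT-HSCs and none lower, against 0.312% and 0.117% of all tested genes. A higher fitted level was found in 42, against 49.4% of all tested genes. In 25 the fractions did not overlap, all with LT-HSCs higher, against 6.04% of all tested genes. The median log2 fold change was 0.93, and 0.98 over 48 members with genes at 0 in a fraction set to their bound. The summed level of the list was 3768, 4081 and 4401 CPM in young LT-HSCs against 2129, 2220 and 2091 in young ST-HSCs. Bulk-HSCs of the same age had 2204 to 2519 CPM, close to the ST-HSCs. In aged mice the same sums were 6757 to 7640 CPM in LT-HSCs and 4366 to 4964 in ST-HSCs, so that LT-HSCs were the higher fraction at both ages. The list shares 6 genes with the HSC identity list and 6 with the platelet list. Without those lists, 38 tested members remained, with a median of 0.86. Of these, 6 were called higher, 31 had a higher fitted level and 18 did not overlap with LT-HSCs higher. The shares over all tested genes were again 0.312%, 49.4% and 6.04%.

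The called members of that list were Selp, Vwf, Itgb3, Slamf1, Sdpr, Clca3a1, Sult1a1, Ehd3, Gda, Amotl2 and Muc1. Sdpr, which encodes cavin-2 of caveolae, had 105, 93.9 and 46.5 CPM in LT-HSCs and 31.6, 31.4 and 35.0 in ST-HSCs. Gda, guanine deaminase, had 213, 236 and 373 CPM against 86.0, 133 and 169. Sult1a1, a phenol sulfotransferase, had 196, 118 and 242 CPM against 80.2, 76.2 and 53.7. Each of these lay wholly above the ST-HSC range. Clu, which encodes the chaperone clusterin, had 49.6, 50.2 and 70.5 CPM against 5.86, 0 and 14.5. Its log2 difference of 3.07 was not called (SE 0.85, adjusted p = 0.137).

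Among 33 platelet and megakaryocyte genes, 3 were called higher (Vwf, Selp and Itgb3) and 1 lower (Plek), against 0.312% and 0.117% of all tested genes. A higher fitted level was found in 15, against 49.4% of all tested genes, and the median was -0.01. Itgb3, the beta-3 integrin of the platelet fibrinogen receptor, had 207, 145 and 252 CPM in LT-HSCs and 92.2, 84.4 and 106 CPM in ST-HSCs, a log2 difference of 1.10 (SE 0.17). Its partner subunit Itga2b overlapped, at 49.7, 58.5 and 100 CPM against 78.3, 74.9 and 64.5. Pf4, the platelet chemokine, was low in both fractions, at 0 to 12 CPM against 0 to 13.9. Calls in this list therefore ran in both directions.

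In the niche and adhesion list, 4 of 38 members were called higher (Itgb3, Selp, Jam2 and Neo1) and none lower, with a median of -0.03. The shares called over all tested genes were 0.312% higher and 0.117% lower. Jam2, a junctional adhesion molecule, had 43.4, 61.6 and 39.2 CPM against 18.4, 22.1 and 12.9. Outside that list, Mylk, which encodes myosin light chain kinase, had 104, 89.2 and 82.1 CPM against 32.5, 49.9 and 36.8, with a log2 difference of 1.21. Vcl, the vinculin gene, had 153, 152 and 171 CPM against 90.4, 102 and 65.8, with 0.88. Both were called higher, and Parvg was called lower. Among 37 growth factor and cytokine receptors, Epor was the 1 called gene and the median was 0.16. Ghr, the growth hormone receptor, had 24.2, 36.2 and 29.6 CPM against 8.97, 12.1 and 8.97, with an adjusted p of 0.056 just outside the threshold. Pgr, the progesterone receptor gene, which was on no list, had 52.4, 51.9 and 33.4 CPM against 15.7, 14.1 and 9.82 and was called, as was Ahr, the aryl hydrocarbon receptor gene, at 34.3, 38.1 and 27.3 CPM against 16.8, 11.7 and 6.53.

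Cell cycle genes mostly had lower levels in LT-HSCs without a single call. Of 42 S-phase genes, 35 had a lower fitted level in LT-HSCs, against 50.4% of all tested genes. In 15 the libraries did not overlap, all with LT-HSCs lower, against 6.07% of all tested genes, and the median log2 fold change was -0.52. The summed level of the S-phase list was 1670, 1965 and 2104 CPM in LT-HSCs and 2642, 2384 and 2856 CPM in ST-HSCs, so the sums did not overlap. Mcm5, a subunit of the replicative helicase, had 51.3, 49.997 and 73.3 CPM against 88.2, 117 and 108 (log2 fold change -0.84, adjusted p = 0.137 by edgeR). Nasp, a histone chaperone, had 13.9, 28.8 and 21.4 CPM against 55.6, 40.7 and 66.4. Of 53 G2/M genes, 45 had a lower fitted level and 7 lay wholly lower, again beside 6.07% of all tested genes, with a median of -0.35. The summed G2/M level was 2133, 2456 and 2969 CPM against 3298, 2920 and 3063, so LT-HSC replicate 3 reached the ST-HSC range. Without LT-HSC replicate 2 the G2/M median was -0.20. Hmgb2, a chromatin protein of dividing cells, had 35.6, 36.2 and 40.9 CPM against 65.2, 63.3 and 107, with an adjusted p of 0.065, and Mki67, the Ki-67 gene, overlapped at 153, 122 and 282 CPM against 285, 159 and 279.

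Among 27 regulators of quiescence none was called, 17 had a higher fitted level against 49.4% of all tested genes, and the median was 0.08. Cdkn1c, the cyclin-dependent kinase inhibitor p57, had 63.8, 57.1 and 39.4 CPM in LT-HSCs and 25.8, 37.2 and 24.5 in ST-HSCs, without overlap (log2 fold change 0.87, SE 0.21, adjusted p = 0.085). The growth regulator Myc had 109, 115 and 138 CPM against 257, 199 and 193 (-0.84, adjusted p = 0.104). Cdk6, a kinase of G1 progression, overlapped because LT-HSC replicate 3 had 120 CPM and ST-HSC replicate 2 had 117. None of these passed the threshold singly. Ribosome biogenesis genes had a median of -0.13, with 18 of 68 higher and none called, and 54 oxidative phosphorylation genes had a median of -0.07, also with 18 higher and none called.

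Lineage genes gave few calls. Of 28 lymphoid genes, 1 was called lower (Sox4) and 1 higher, against 0.117% and 0.312% of all tested genes. A lower fitted level was found in 18, against 50.4% of all tested genes, and the median was -0.12. No myeloid gene of 25 was called, and the median was -0.06. Of 18 erythroid genes Epor was called, and the median was -0.12. Car1, a carbonic anhydrase of early red cells, had 0 counts in all LT-HSC libraries and 14.5, 29.2 and 19 CPM in ST-HSCs, at least 129-fold lower. It was not called (adjusted p = 0.065 by edgeR). In aged mice Car1 had 0 counts in all LT-HSC libraries and 40.6, 0 and 11.96 CPM in ST-HSCs, so the aged fractions overlapped. Young bulk-HSCs had 30.2, 129 and 37.8 CPM, above every young library of either fraction, and aged bulk-HSCs had 0.441, 0 and 0 CPM. Interferon response genes had a median of 0.14 with 34 of 50 higher, immediate early genes 0.15 with 21 of 28 higher, and neither list held a call. Of 39 imprinted genes 25 were higher, none was called and the median was 0.38. Over all tested genes 49.4% were higher. Dlk1, an imprinted Notch-family ligand gene, had 12.1, 3.82 and 49.9 CPM against 0, 2.31 and 0, and its neighbor Rian had 36.7, 41.1 and 98.3 CPM against 20.2, 10.7 and 22.5. Of the 13 tested mature cell markers none was called.

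**Figure D4:**
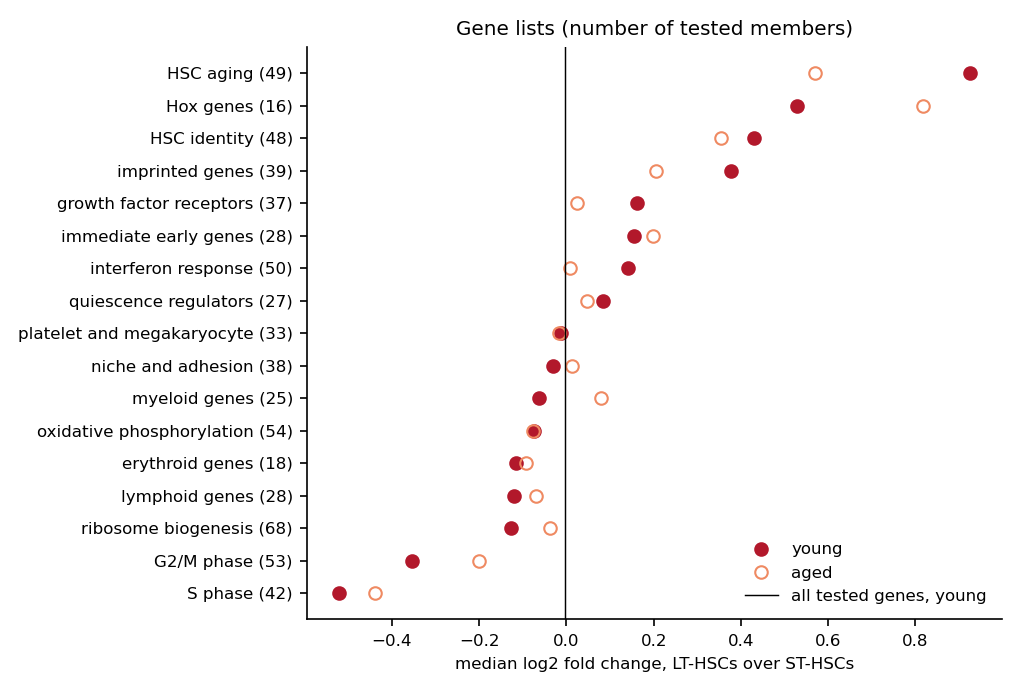
Median log2 ratio of LT-HSCs over ST-HSCs for 17 gene lists in young (filled) and aged (open) mice, with the number of tested members beside each name and a line at the median of all tested genes in young mice. The HSC aging list has the highest young median, at 0.93, and the S-phase list the lowest, at -0.52.

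The same fractions of aged mice share no library with the young ones and show how far the young differences held. In aged mice 1 gene was called between LT-HSCs and ST-HSCs (0.00781% of those tested). It was Vwf, at 697, 830 and 1050 CPM against 310, 251 and 349, a log2 difference of 1.501 (SE 0.20, adjusted p = 0.010 by edgeR). By unadjusted p under 0.05 from edgeR the number was 437 in aged and 1333 in young mice. Both counts used a spread per gene estimated over all groups together, so they do not rank the ages. LT-HSC libraries lay wholly above or below ST-HSC libraries in 8.67% and 6.34% of tested genes in aged mice. In young mice the shares were 6.04% and 6.07%. Of the 40 genes called higher in young LT-HSCs, 38 had the same sign in aged mice and 31 did not overlap with aged LT-HSCs higher, against 8.67% of all tested genes. Of the 15 called lower, 13 had the same sign and 8 did not overlap with aged LT-HSCs lower, against 6.34%. Over all tested genes 57.3% had the same sign at both ages.

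The aged differences were smaller in 54 of the 55 genes, with medians of 0.60 against 1.61 for genes higher in young LT-HSCs and -0.48 against -1.17 for those lower. Since these genes were chosen by their young values, the smaller aged values are no test of age. The difference between ages passed the adjustment in 0 genes (edgeR, smallest adjusted p = 0.295, with 502 genes at an unadjusted p under 0.05). DESeq2 was not run on this interaction. Slc22a3 kept most of its difference: aged LT-HSCs had 30.3, 21.5 and 15.1 CPM and aged ST-HSCs 78.3, 57.0 and 77.4, with a log2 difference of -1.67 (SE 0.27, adjusted p = 0.061). Mlec, a lectin of the endoplasmic reticulum, had -0.56 in young and -0.60 in aged mice, and Jam2 had 1.43 and 1.36.

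Amotl2 had 33.3, 53.2 and 42.7 CPM in aged ST-HSCs, near the 36.8 to 48.8 of young LT-HSCs, and 65.3, 75.5 and 75.2 in aged LT-HSCs, and its log2 fold change was 0.74 in aged mice. Selp had 208, 262 and 259 CPM in aged ST-HSCs, above every young LT-HSC library, and 346, 335 and 410 in aged LT-HSCs. Chrm3 had 25.9, 28.3 and 22.1 CPM in aged ST-HSCs and 44.8, 62.0 and 47.2 in aged LT-HSCs. By contrast Hoxb8 and Hoxb9 had 0 counts in all aged ST-HSC libraries. Tmem158, Kif21a and Ahr, all called in young mice, overlapped in aged mice with log2 differences of 0.04, 0.18 and 0.01. Epor and Prosc, also called higher in young LT-HSCs, overlapped in aged mice with the opposite sign, at -0.10 and -0.13. Epor had 2.62, 8.08 and 4.04 CPM in aged LT-HSCs and 9.53, 2.00 and 4.22 CPM in aged ST-HSCs.

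**Figure D5:**
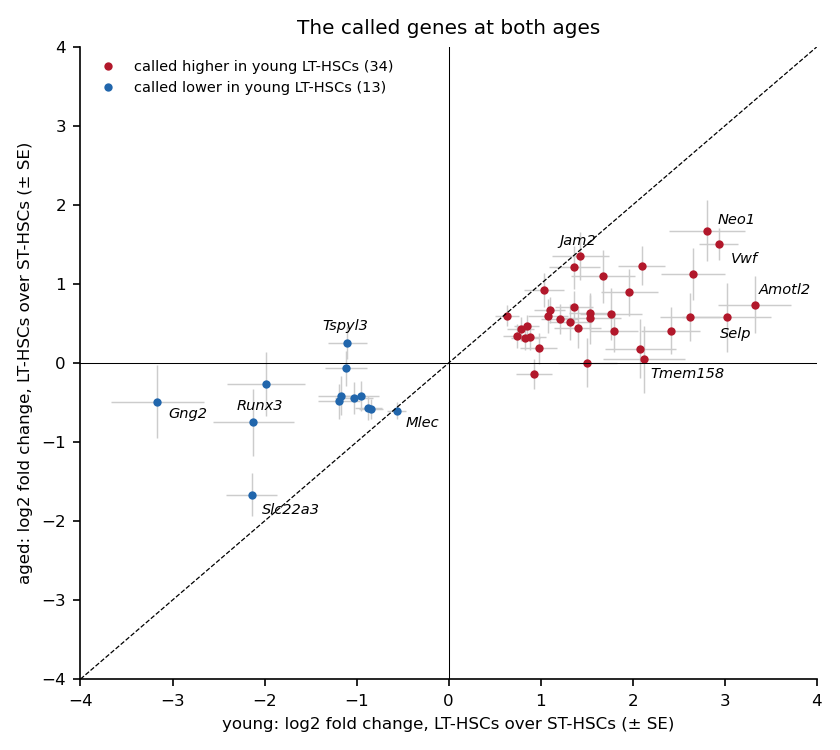
Log2 ratio of LT-HSCs over ST-HSCs in aged mice against that in young mice, each with its standard error, for 47 of the 55 genes called in young mice (34 higher in red, 13 lower in blue). The 8 genes with young values beyond 6 are left out, and all plotted points but Mlec lie between the dashed line of equal change and 0 or across 0.

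In bulk-HSCs of young mice, which hold both fractions, the mean CPM lay between those of LT-HSCs and ST-HSCs for 36 of the 40 genes called higher and 14 of the 15 called lower, and for 33.7% of all tested genes. Since the called genes were chosen for the distance between the fractions, nothing is read from this. The exceptions were Epor, Exph5, Itgb3 and Mylk among the genes higher and Pdcd2 among those lower. Epor had 6.10, 17.4 and 9.44 CPM in bulk-HSCs, above every library of either fraction. Fgd5 and Slamf1 lay between, as did Sox4, at 186, 171 and 175 CPM.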

How the data were processed

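The authors depleted ribosomal RNA before sequencing 18 libraries, mapped the reads with HISAT2 to mm10 and ran StringTie 1.3.4d for quantification. They deposited unnormalized whole-number read counts for 24421 symbols. Rn45s, the gene of the ribosomal RNA precursor, still took 12.8% to 15.5% of the counts in the 6 young LT-HSC and ST-HSC libraries. Columns were matched to samples by the sample descriptions. Counts were scaled with TMM factors to CPM, and edgeR 4.0.16 (quasi-likelihood test, R 4.3.3) was fitted to the 12808 genes whose mean over all 18 libraries reached 1 CPM. The model had 6 group means and 12 residual degrees of freedom. The contrast of young LT-HSCs over young ST-HSCs was the main result, with aged LT-HSCs over aged ST-HSCs and the difference between these contrasts beside it. A gene was called at an adjusted p (Benjamini-Hochberg) under 0.05. Differences are log2 fold changes, and each SE is the size of the difference over the root of F. Tested on simulated counts of 12808 genes for the young comparison, the script recovered 123 of 200 genes changed 4-fold, all with the right sign, and called 6 unchanged genes. The simulation gave all 18 libraries the same spread per gene and left out the excess zeros and single-gene peaks of the young libraries. It therefore cannot show how many false calls those would bring.

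Alternatives were library size and RLE scaling, 3 other filters, fits on fewer groups, a replicate block, DESeq2 1.42.0, limma-voom (limma 3.58.1) and leaving out each library in turn. A fit without replicate 3 of both fractions and one of genes above 0 in all 6 libraries were added after seeing the data. Named genes were the 12 largest rises and 12 largest falls among called genes that reached 10 CPM in one fraction and did not overlap, the 4 members of each list with the smallest p, and the sort markers, and a few of these are not reported here. The other called genes, the further Hoxb genes, Hoxa9, Hoxc6, Pik3r1, Mecom, Procr, Hlf, Lmna, Clu, Itga2b, Pf4, Mki67, Cd48, Hbb-bs and genes peaking in 1 library were chosen after their values were seen. The members and the 20 hand-written gene lists were chosen with earlier results of these data known. Coordinates came from GENCODE M21 (GRCm38, the same assembly as mm10) and promoter windows from RefSeq. A gene at 0 in a whole group is given as a bound against 3 counts per library. Figures were drawn with matplotlib 3.10.9.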

Additional observations from a re-analysis of the deposited data

Results flagged for a closer look

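Tspyl3, of the testis-specific protein Y-like family, had 21.4, 21.4 and 21.03 CPM in young LT-HSCs and 34.3, 46.2 and 56.7 CPM in young ST-HSCs, and was called lower in LT-HSCs (log2 difference -1.10). In aged mice every LT-HSC library, at 49.9, 46.5 and 41.1 CPM, lay above every ST-HSC library, at 38.7, 40.9 and 35.3 CPM, a log2 difference of 0.26. It was picked out because the libraries separated in opposite directions at the 2 ages. The young minus the aged log2 difference was -1.36 (SE 0.30), with an adjusted p of 0.444 for that difference from edgeR, so the reversal did not pass the test.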

How the results depend on the processing

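The young comparison called 40 genes higher and 15 lower. The number lower was 24 with a filter of at least 10 counts in every library. Fits of fewer libraries called 4 higher and 1 lower with the 2 groups alone and 2 higher and 2 lower with the 9 young libraries, and the lower residual degrees of freedom are part of how these fits are made. DESeq2 called 235 and 130, limma-voom with sample weights 5 and 2, and the fit without replicate 3 of both fractions 24 and 6. The cause of these last differences was not tested. Leaving out each library in turn gave 27 to 53 higher and 8 to 74 lower, and 21 of the 55 genes were called in all 6 of these fits. The other settings gave counts within 1.5 times the main ones.

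Replicate numbers were not taken as pairs, since the sources do not state that equal numbers belong together. The deviations of same-numbered LT-HSC and ST-HSC libraries had correlations of 0.0107, 0.164 and 0.129, all positive, which does not settle the question. ST-HSC replicate 1 correlated more with LT-HSC replicate 2, at 0.0583, and the other 5 libraries correlated best with their own number, which is only a hint from the data. With the replicate block, 40 genes were higher and 13 lower, 44 of them among the 55, and Cd34 passed with an adjusted p of 0.016.

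Of 360 list medians under alternatives 9 moved by more than their spread. The G2/M median was -0.58 with limma-voom, -0.60 without replicate 3 of both fractions and between -0.53 and -0.20 with a library left out, all below 0. The sort marker median was -0.88 with no filter beyond 1 count and with filterByExpr, and -0.17 with at least 10 counts in every library and with genes above 0 in all 6 libraries. The mature cell median was -0.60 and became 1.71 in the last of these settings, where few members remained. Ly6a turned from -0.04 to 0.014 with library size alone, 0.31 with limma-voom, 0.41 without replicate 3 of both fractions, and lay between -0.29 and 0.35 with a library left out. Ptprc, the CD45 gene, had -0.08 and lay between -0.24 and 0.084 with a library left out, above 0 without LT-HSC replicate 1 or ST-HSC replicate 2. Depth limits genes below about 0.176 CPM, and 11613 symbols were below the level for testing.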
